A study of Mus musculus with 4 samples.

Results

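Apolipoproteins are the proteins that give a lipoprotein particle its shape, its receptor binding and its enzyme partners. In the cells that secrete such particles, microsomal triglyceride transfer protein (encoded by Mttp) loads lipid onto apolipoprotein B, and the smaller apolipoproteins join at assembly or later in plasma. Before birth both the hepatocytes of the fetal liver and the endoderm of the visceral yolk sac are known to secrete lipoproteins, the yolk sac passing maternal lipid to the embryo. The genes described here are 10 members of this system, chosen by name: Apoa1, Apoa2, Apoa4, Apoa5, Apob, Apoc1, Apoc3, Apoe, Apom and Mttp. They are 10 of the 21951 protein-coding genes of the GENCODE M21 annotation, and each was found in it.

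Transcription start regions were mapped by PRO-seq in whole liver and whole yolk sac of mouse embryos at stage E14.5, with 2 libraries per tissue. PRO-seq labels RNA in engaged polymerases by letting them run on, so it reads transcription in progress rather than stored RNA. Each library was made from the tissue of 6 embryos pooled, frozen and ground, and the run-on was done on isolated chromatin. All embryos had C57BL/6J mothers and fathers of a mixed C57BL/6J and CAST/EiJ background that carried CAST/EiJ alleles at the Dlk1/Gtl2 locus (chromosome 12). The samples' own strain entry reads C57BL/6h and CAST/EiJ, mixed. No mutation or treatment separates the groups, and no allele-resolved values were analysed here. In such bulk samples, fewer cells of a type and less transcription per cell cannot be told apart.

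The values are dREG peaks, the intervals that a classifier calls as start regions from the run-on reads, each with the authors' score. The liver lists held 24863 and 24333 peaks and the yolk sac lists 50525 and 43055. No read counts were analysed here, and the depth behind each list is unknown. The score was used only as a percentile, the share of a library's own peaks that scored lower. Lists of unequal length set different percentiles for the same rank, so a percentile difference between tissues shows no change in transcription by itself. With 2 libraries against 2, the exact permutation test cannot give a p below 0.333, and nothing in the labels says that the 2 pools of a tissue were raised separately.

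Marker genes were read in the same way, as a peak within 500 bp of a start. Of 8 hepatic markers, 6 and 5 had a promoter peak in the liver lists and 6 in each yolk sac list; Serpina1a had none in any list. Of 8 yolk sac endoderm markers, 6 and 5 had one in liver and all 8 in both yolk sac lists. Erythroid markers, from the blood-forming cells that fill the fetal liver, had 8 of 8 in both liver lists and 3 of 8 in both yolk sac lists. Mesenchymal markers had 3 and 5 of 6 in liver and 6 in each yolk sac list. Endothelial markers had 3 and 4 of 4 in liver and 4 in each yolk sac list. Macrophage markers had 2 of 4 in both liver lists and 4 and 3 in yolk sac. The part of this cell mixture in the results on the apolipoprotein genes was not tested.

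The results turn on start regions, so the DNA directly upstream of 5 of these starts is shown first. Each stretch is the 100 bases before the gene's first GENCODE start, read on the gene's strand from the RefSeq promoter table of GRCm38.p6. The 5 genes are those for which that table held 100 bases before the start free of annotated exons. They include Apob, with the widest peaks, Apoa5, called in liver alone, and Apoa2, a gene with little width difference. Capitals mark matches to the motifs described after them.
Apob, chr12:7977548-7977647, plus strand: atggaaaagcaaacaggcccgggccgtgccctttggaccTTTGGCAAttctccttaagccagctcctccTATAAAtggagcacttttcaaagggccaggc
Apoa1, chr9:46228480-46228579, plus strand: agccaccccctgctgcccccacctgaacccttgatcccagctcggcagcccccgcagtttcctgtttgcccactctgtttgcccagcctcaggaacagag
Apoa5, chr9:46268533-46268632, plus strand: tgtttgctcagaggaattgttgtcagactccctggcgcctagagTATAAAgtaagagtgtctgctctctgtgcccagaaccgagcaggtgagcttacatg
Apoe, chr7:19699189-19699288, minus strand: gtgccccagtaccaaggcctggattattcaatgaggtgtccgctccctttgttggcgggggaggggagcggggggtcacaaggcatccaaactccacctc
Apoa2, chr1:171224954-171225053, plus strand: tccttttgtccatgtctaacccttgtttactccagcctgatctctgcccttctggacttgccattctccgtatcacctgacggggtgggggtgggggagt

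The RefSeq table held a 300-base promoter window for 8 of the 10 genes, all but Apoc1 and Apoc3. The TATA box letters TATAAA were in the windows of Apoa2, Apoa5 and Apob, or 3 of 8, against 13.6% of all 32851 windows in the table. The Apob match ended 26 bases before the GENCODE start, the Apoa5 match 51 bases and the Apoa2 match 207 bases before it. The C/EBP letters TTGCNNAA were found for Apob alone, against 10.8% of all windows, and the GC box GGGCGG for Mttp alone, against 35.7%. The GATA letters AGATAA (11.2% of all windows), the nuclear receptor letters AGGTCA (16.3%), CAAAGTCC (1.42%) and CAAAGGTCA (0.478%) were in none of the 8 windows. Both strands were searched, and every CAAAGGTCA match is also an AGGTCA match. Such letters are a description of the DNA and mark no binding.

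A promoter peak, meaning a peak that overlapped the 500 bp either side of any annotated start, was present for nearly all of these genes in both tissues. Liver replicate 1 had one for 10 of 10, liver replicate 2 for 8, and each yolk sac library for 9. Among all protein-coding genes the shares were 56.06% and 57.88% for liver, and 63.77% and 62.42% for yolk sac. The mean number was 9 for either tissue, with an SD of 1.41 in liver and 0 in yolk sac (n = 2), so the means did not differ (exact two-sided permutation test, p = 1). Apoa1, Apoa2, Apob, Apoc1, Apoe, Apom and Mttp were called in all 4 lists, 7 of 10 beside 53.8% of protein-coding genes. None of the 10 lacked a peak in every list, as 34.2% of protein-coding genes did.

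Apoa5 was the only gene of the 10 called in both liver lists and in neither yolk sac list, a pattern found for 1.01% of protein-coding genes. None had the opposite pattern, which 5.25% of protein-coding genes had. Apoa4 and Apoc3 were called in liver replicate 1 and both yolk sac lists but not in liver replicate 2, so the liver replicates disagreed for 2 of 10 genes beside 3.58% of all protein-coding genes. Without liver replicate 1 these genes would count as called in yolk sac alone, and with a 250 bp window Apoa4 does so too. When only the 50% of peaks that scored higher were kept, the liver-only call of Apoa5 was gone. Apoc1, Apoc3 and Apoe were then called in both yolk sac lists and neither liver list. The share of all protein-coding genes with that pattern was not computed for this cut, which keeps the yolk sac lists longer. Whether it is particular to these genes was thus not tested.

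**Figure D1:**
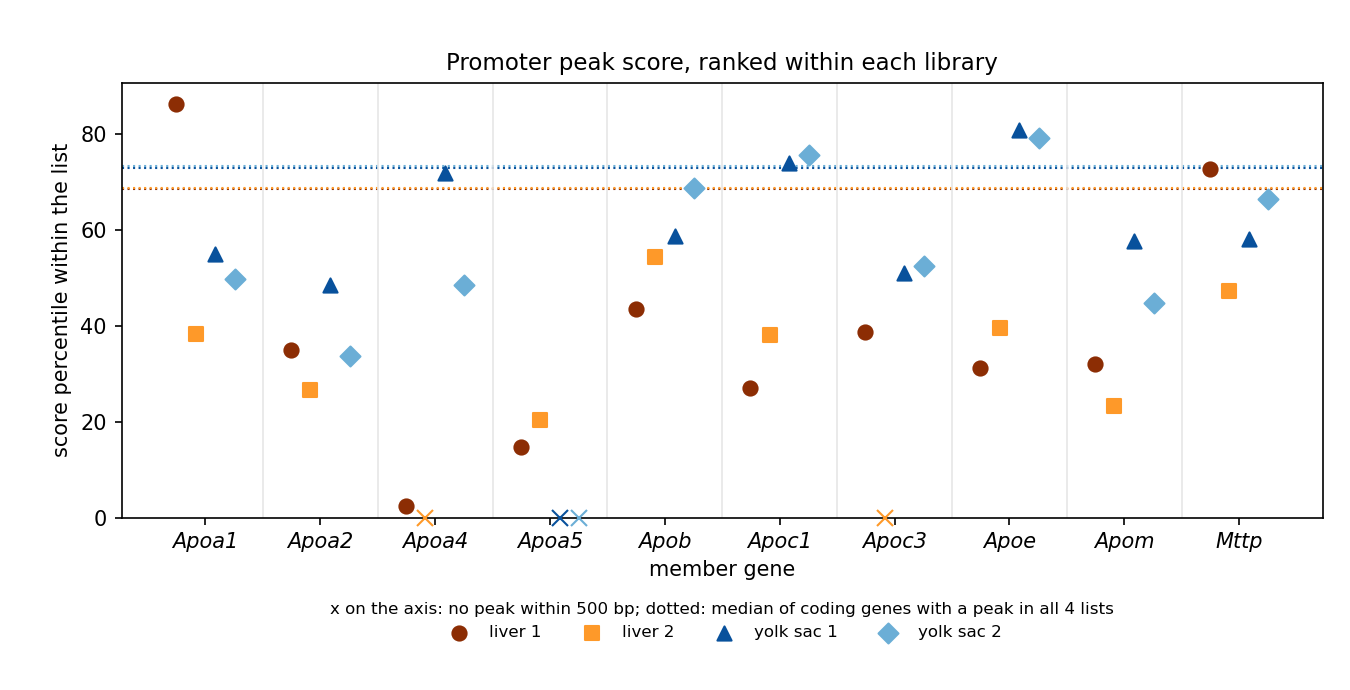
Within-list score percentile of the promoter peak (vertical axis, percent of the library's own peaks that scored lower) for each gene, 1 point per library, with crosses on the axis where no promoter peak was called. Apoc1 and Apoe sit near 75 and 80 in both yolk sac lists and under 40 in both liver lists, while the 2 liver points of Apoa1 lie at 86.3 and 38.2; dotted lines are the medians of the 11805 protein-coding genes with a promoter peak in all 4 lists.

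Apob encodes the large structural protein on which very-low-density particles and chylomicrons are built. The gene lies at chr12:7977648-8016835 on the plus strand, and its main start was inside a peak in every library. The peak measured 2502 bp in liver replicate 1, 2202 bp in liver replicate 2, 5302 bp in yolk sac replicate 1 and 4502 bp in yolk sac replicate 2. The tissues did not overlap, and the yolk sac peaks were the widest promoter peaks found for any of these genes. Their mean was 4902 ± 566 bp against 2352 ± 212 bp in liver (SD, n = 2), a ratio of 2.08. The added length lay upstream: the peak reached 447 and 397 bp upstream of the start in liver, and 3347 and 2097 bp in yolk sac. Liver replicate 1 also had a small separate peak there, at chr12:7976001-7976102, inside the stretch that both yolk sac peaks covered. How far the width difference reflects the joining of neighbouring calls was not tested. Downstream it reached 2054 and 1804 bp in liver and 1954 and 2404 bp in yolk sac, which overlap. The score percentile was 43.4 and 54.4 in liver and 58.6 and 68.6 in yolk sac, higher in yolk sac by 14.7 points. This direction was not stable, since with equal numbers of peaks per list the difference turned to -19.02 points.

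Mttp encodes the transfer protein that apolipoprotein B needs for its lipid, and lies at chr3:138089854-138144968 on the minus strand. Its promoter peak measured 2552 and 2002 bp in liver and 2402 and 2152 bp in yolk sac. Both tissues had a mean of 2277 bp, with an SD of 389 bp in liver and 177 bp in yolk sac (n = 2), so unlike Apob the width did not separate them. The percentile was 72.7 and 47.2 in liver and 58.0 and 66.4 in yolk sac, again overlapping. With equal list lengths the difference turned from 2.23 to -33.01 points, higher in both liver lists. The promoter peak also covers the start of Trmt10a, a divergent neighbour that encodes a tRNA methyltransferase. The list cannot assign it to either gene. A second annotated Mttp start, at position 138131377 inside the gene, had a peak in all 4 lists. That peak measured 102 and 202 bp in liver and 902 and 702 bp in yolk sac, without overlap. Its percentile was 0.3 and 18.3 in liver and 56.7 and 18.1 in yolk sac, which overlap.

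Apoa1, Apoc3, Apoa4 and Apoa5 lie side by side on chromosome 9, and their promoter peaks followed different patterns. Apoa1 (chr9:46228580-46230466, plus strand) encodes the main protein of high-density lipoprotein. Its promoter peak measured 2952 bp in liver replicate 1, 702 bp in liver replicate 2, 3552 bp in yolk sac replicate 1 and 3952 bp in yolk sac replicate 2. The yolk sac peaks were wider than both liver peaks, but the liver replicates differed by more than the gap between the tissues. In liver replicate 2 the region was split, with another peak from 46229951 to 46231352 beyond the promoter peak, which ended at 46229152. The reach upstream of the start did not depend on that split: it was 279 and 129 bp in liver and 1379 bp in both yolk sac lists. The liver percentiles were 86.3 and 38.2, and those in yolk sac 54.9 and 49.8. The yolk sac values lay between the liver ones, and the mean difference of -9.88 points is smaller than the liver SD of 34.1. With equal list lengths the difference was -53.29 points, higher in both liver lists.

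Apoc3 (chr9:46232933-46235636, minus strand) encodes an inhibitor of triglyceride clearance from plasma. Its peak measured 602 bp at percentile 38.7 in liver replicate 1, and 1002 and 1052 bp at percentiles 50.9 and 52.4 in yolk sac. In liver replicate 2 the nearest peak was 3908 bp from its start. Apoa4 (chr9:46240696-46243459, plus strand) encodes an apolipoprotein best known from intestinal particles. Its yolk sac peaks measured 2452 and 2352 bp at percentiles 71.9 and 48.4. In liver replicate 1 its only promoter peak was 552 bp wide, began 455 bp inside the gene, just within the window, and stood at percentile 2.5 with a score of 0.811. The lowest score in that list was 0.80. Liver replicate 2 had no peak closer than 9344 bp. The Apoa4 peak region also holds the start of Gm47528, and the list cannot assign it to either gene.

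Apoa5 (chr9:46268633-46271919, plus strand) encodes a scarce apolipoprotein that promotes triglyceride hydrolysis. It had small peaks in both liver lists and none in yolk sac. The liver peaks measured 302 and 252 bp, narrower than the main promoter peak of any of the other genes, and stood at percentiles 14.7 and 20.3. The first spans the TATAAA letters shown above, and the second ends 81 bp before the start, upstream of those letters. The nearest yolk sac peaks were 3623 and 3673 bp away. These liver peaks ranked 21200th and 19389th from the top, so a cut of all lists to 24333 peaks could not remove them. Both fell out of the higher-scoring 50%.

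Apoe and Apoc1 are neighbours on chromosome 7 and gave the clearest separation of the tissues in score. Apoe (chr7:19696109-19699188, minus strand) encodes the ligand through which remnant particles bind their receptors on cells. Its peak stood at percentile 31.1 and 39.5 in liver but at 80.7 and 79.2 in yolk sac. By rank from the top it was 17138th and 14721st in liver, and 9756th and 8953rd in the longer yolk sac lists. The tissues were far apart relative to their replicates, with means of 35.3 ± 5.96 and 79.95 ± 1.05 (SD, n = 2) and a difference of 44.7 points. With equal list lengths the difference was 27.02 points and the tissues still did not overlap. The peak was also wider in yolk sac, at 1652 and 2252 bp against 1152 and 1102 bp, a ratio of 1.73. It reached 214 and 164 bp upstream in liver and 514 bp in both yolk sac lists.

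Apoc1 (chr7:19689481-19692660, minus strand) encodes a small exchangeable apolipoprotein that hinders lipoprotein uptake. Its percentile was 27.0 and 38.0 in liver and 74.0 and 75.6 in yolk sac, a difference of 42.3 points. With equal list lengths this was 19.72 points, without overlap. The peak measured 902 and 1502 bp in liver and 2902 and 2802 bp in yolk sac, and the ratio of the means, 2.37, was the highest among the 7 genes called in all lists. It reached 92 and 242 bp upstream of the start in liver, but 1442 and 1292 bp in yolk sac. The neighbouring Apoc2, which encodes the activator of lipoprotein lipase, had percentiles of 29.0 and 12.8 in liver and 60.9 and 66.2 in yolk sac. Apoc4 beside it had 55.3 and 20.2 in liver and overlapped them in yolk sac, where the higher value was 61.2. Tomm40, upstream of Apoe and part of the mitochondrial import pore, had 81.8 and 54.6 in liver and 72.8 and 58.0 in yolk sac, also overlapping.

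Apom and Apoa2 each lie among unrelated genes. Apom (chr17:35128997-35132050, minus strand) encodes the carrier of sphingosine-1-phosphate on high-density lipoprotein. Its peak measured 1402 and 1052 bp in liver and 2152 and 2002 bp in yolk sac, a ratio of 1.69 without overlap. Here the added length lay inside the gene: the peak reached 1299 and 949 bp downstream in liver and 1899 bp in both yolk sac lists. Its percentile of 32.1 and 23.3 in liver and 57.6 and 44.7 in yolk sac gave a difference of 23.5 points, which turned to -19.88 points with equal list lengths.

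Apoa2 (chr1:171225054-171226379, plus strand) encodes the second main protein of high-density lipoprotein. Its peak measured 2252 and 1752 bp in liver and 2102 and 1602 bp in yolk sac, and stood at percentiles 34.9 and 26.6 against 48.4 and 33.6. Both measures overlapped between the tissues. The yolk sac peaks of Apoa2 dropped out at equal list lengths while the liver peaks stayed. That setting shortens the yolk sac lists and leaves the liver lists nearly whole.

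**Figure D2:**
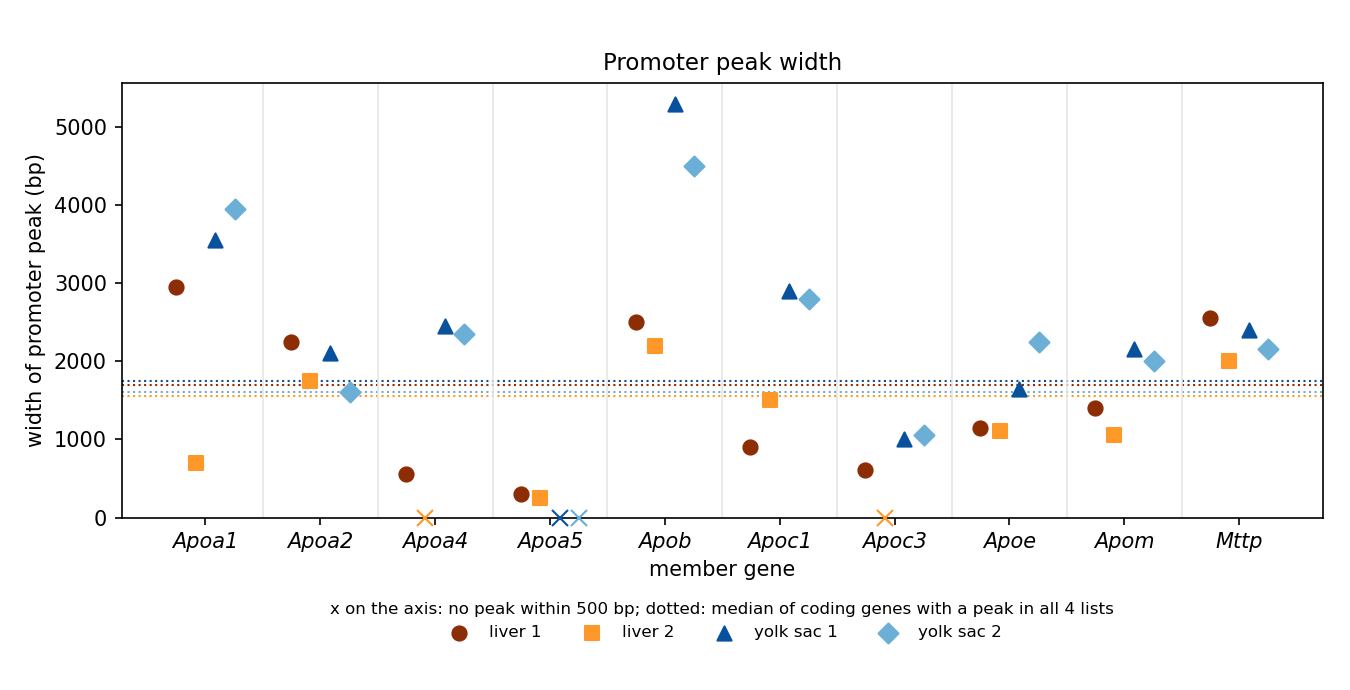
Width of the promoter peak in bp (vertical axis, from 0) for each gene, 1 point per library, with crosses on the axis where no promoter peak was called. Both yolk sac points lie above both liver points for Apoa1, Apob, Apoc1, Apoe and Apom, and the tissues overlap for Apoa2 and Mttp; dotted lines are the medians of the 11805 protein-coding genes called in all 4 lists.

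Width therefore separated the tissues for 5 of the 7 genes called in all 4 lists, Apoa1, Apob, Apoc1, Apoe and Apom. Each was wider in both yolk sac libraries, beside 34.5% of the 11805 protein-coding genes called in all 4 lists. None of the 7 was wider in both liver libraries, beside 20.9% of those genes. The median log2 ratio of width, yolk sac over liver, was 0.79 for the 7 and 0.05 for all 11805. The median width of the 7 was 2252 and 1502 bp in liver and 2402 and 2252 bp in yolk sac. Over the 11805 genes it was 1702 and 1552 bp in liver and 1752 and 1602 bp in yolk sac. All peaks of the lists, which include those away from starts, had medians of 1052 and 1002 bp in liver. In yolk sac these were 902 and 852 bp. With equal list lengths 5 of the 6 genes still called were wider in yolk sac, beside 35.3% of 10255, and 0 of 6 in liver, beside 20.2%. That cut drops peaks but leaves the width of each kept peak unchanged. It therefore cannot test whether list length or depth affects width. The rules by which the peak caller joined neighbouring calls are not given in the sources used here.

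By direction, the upstream edge lay farther out in both yolk sac libraries for Apoa1, Apob, Apoc1 and Apoe, 4 of 7 beside 31.3% of 10705 protein-coding genes with a coding start in the window of all 4 peaks. It lay farther out in both liver libraries for Mttp, 1 of 7 beside 15%, at 1864 and 1714 bp in liver against 1664 and 1614 bp in yolk sac. The nearest of these values, 1714 and 1664 bp, are close. Trmt10a starts 60 bp from the Mttp start used and runs through this stretch, which also holds a noncoding Mttp start at 138144968. The downstream edge lay farther into the gene in yolk sac for Apoc1, Apoe and Apom, 3 of 7 beside 30.7%, and for none in liver, beside 22.3%.

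**Figure D3:**
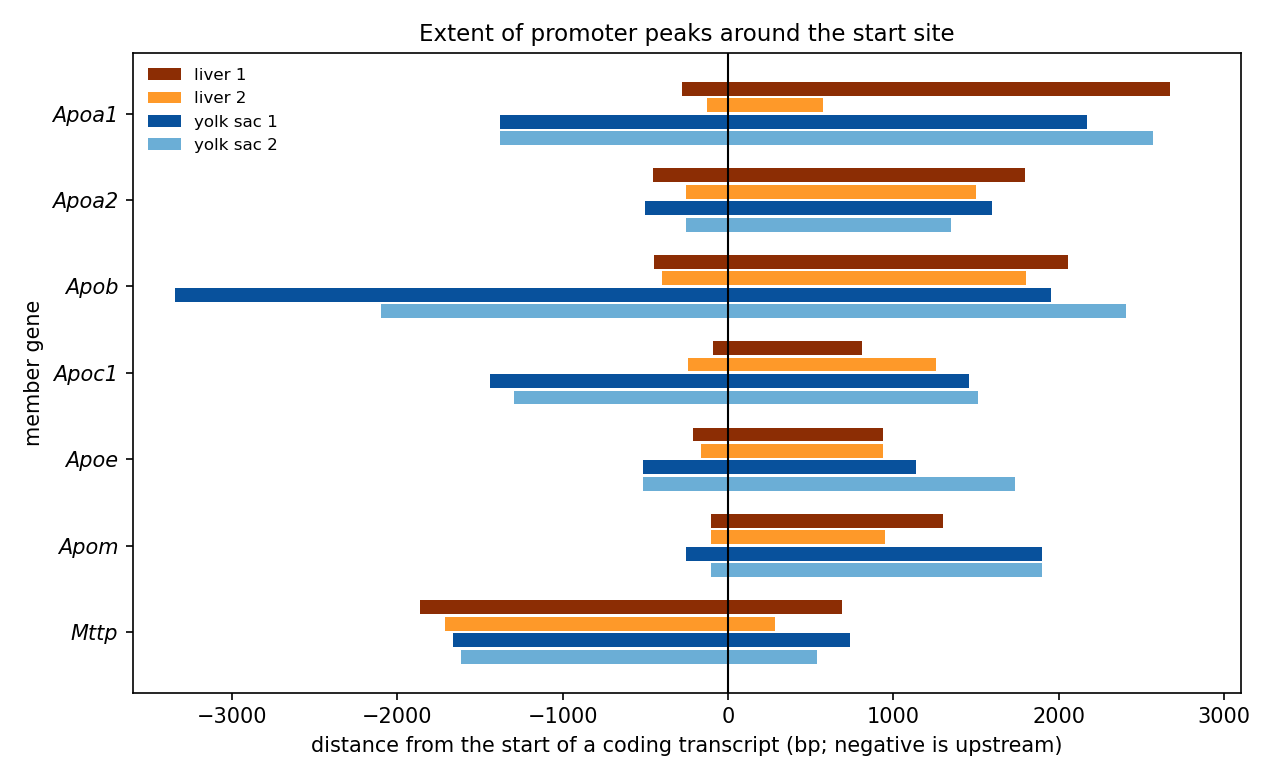
Extent of each promoter peak around the start of a coding transcript (horizontal axis, bp, upstream to the left), with 1 bar per library for the 7 genes called in all 4 lists. The yolk sac bars of Apob, Apoa1 and Apoc1 extend more than 1000 bp upstream and their liver bars less than 500 bp, while the bars of Apoa2 overlap in both directions.

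The score percentile was higher in both yolk sac lists for Apob, Apoc1, Apoe and Apom, 4 of 7 beside 34.4% of 11805 genes, and in both liver lists for none, beside 22.1%. The median difference was 14.7 points for the 7 genes and 3.04 points for all 11805. Equal list lengths changed this picture: 2 of 6, Apoc1 and Apoe, were higher in yolk sac beside 12.9% of 10255 genes, and 3 of 6, Apoa1, Apom and Mttp, were higher in liver beside 52.3%. The median of the 7 genes lay below that of all called promoters in every list, although single genes, such as Apoe and Apoc1 in yolk sac and Apoa1 in liver replicate 1, lay above it. Their median percentile was 34.9 and 38.2 in liver and 58.0 and 66.4 in yolk sac, against 68.5 and 68.7 in liver and 72.8 and 73.4 in yolk sac for all 11805.

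Peaks around these genes were then counted in 6 loci, each the gene or gene cluster with 20 kb on either side. The liver lists placed 28 and 23 peaks there, and the yolk sac lists 40 and 37. The means were 25.5 ± 3.54 and 38.5 ± 2.12 (SD, n = 2), a difference of 13 and a ratio of 1.51, and the groups did not overlap (exact two-sided permutation test, p = 0.333). The whole lists differed by a ratio of 1.90. With equal list lengths the difference reversed to -4, so the excess of yolk sac peaks in these loci did not outlast that setting. Gene by gene, 6 of 10 (Apoa1, Apoa2, Apoa4, Apob, Apoc3 and Mttp) had more peaks within 20 kb in both yolk sac libraries, beside 46.1% of the 17256 genes with a peak there, and 1, Apoa5, had more in liver, beside 7.46%. The windows of the chromosome 9 genes overlap, so their counts share peaks.

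The added yolk sac peaks lay mostly away from gene starts. At the starts of the 10 genes liver had 11 and 9 peaks and each yolk sac list 10, and at other starts 11 and 10 in liver and 12 and 11 in yolk sac. Away from every annotated start there were 6 and 4 in liver and 18 and 16 in yolk sac, or 5 ± 1.41 against 17 ± 1.41 (SD, n = 2; exact two-sided permutation test, p = 0.333). The whole lists differed in the same way. Peaks away from starts made up 47.2% and 44.2% of the liver lists and 66.5% and 62.7% of the yolk sac lists, and their number differed by a ratio of 2.70, beside 3.40 in the loci. Within the loci these shares were lower, at 21.4% and 17.4% in liver and 45% and 43.2% in yolk sac. Together the peaks in the loci covered 34906 and 27896 bp in liver and 61930 and 55274 bp in yolk sac.

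**Figure D4:**
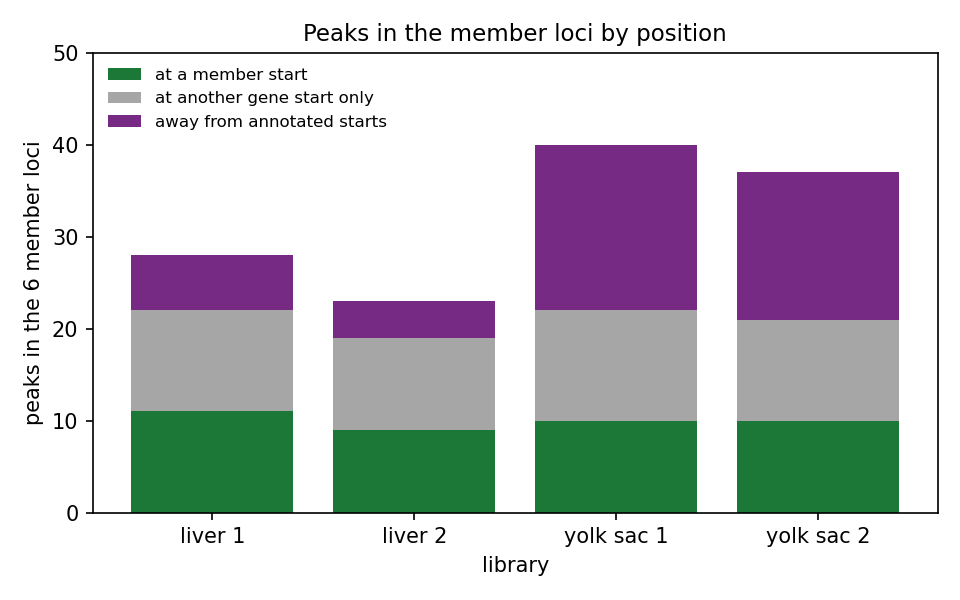
Number of peaks in the 6 loci (vertical axis) for each library, stacked by position: at a start of the 10 genes, at another gene's start only, or away from annotated starts. The upper parts of the bars, away from starts, hold 6 and 4 peaks for liver and 18 and 16 for yolk sac, while the other parts are of similar height in all libraries.

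Merging overlapping peaks of the 4 lists gave 42 regions in the loci. Of these, 20 were called in all 4 lists, beside 25.7% of the 61095 merged regions of the genome. Yolk sac alone had 10, beside 33%, a share below that of the genome. Liver alone had 1, the Apoa5 promoter, beside 6.62%. Of the 19 regions away from starts, 2 were called in all 4 lists, 9 in yolk sac alone and 8 in other combinations. The genome shares above are over all merged regions, and none was computed for regions away from starts alone. With equal list lengths no region was called in yolk sac alone and 2 in liver alone.

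The Apob locus had 3 yolk sac regions and no gene start other than its own. At chr12:7961651-7963102, with its midpoint at -15272 bp from the Apob start, the percentiles were 49.9 and 38.6. At chr12:7965901-7967002, at -11196 bp, they were 38.5 and 65.5. Inside the gene at chr12:7980751-7981952, 3572 bp after the start, they were 29.5 and 11.5. Inside Mttp, yolk sac alone had regions at chr3:138127351-138128302 (percentiles 40.0 and 53.9) and chr3:138128851-138129702 (48.4 and 9.9). Both lie downstream of the internal Mttp start. Counting all peaks within the gene away from its starts, liver had 0 in both lists for Apob and for Mttp, and yolk sac 2 and 1 for Apob and 3 and 2 for Mttp.

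In the chromosome 9 cluster, yolk sac alone had regions at chr9:46223401-46225802, upstream of Apoa1 (percentiles 44.6 and 49.6), and at chr9:46238551-46239352 and chr9:46244101-46244902, on either side of Apoa4 (34.3 and 20.8, then 21.6 and 29.7). Another, at chr9:46231701-46233152 between Apoa1 and Apoc3, was shared by liver replicate 1 (16.1) and the yolk sac lists (39.0 and 32.5). It thus had the same pattern as the Apoc3 and Apoa4 promoters, present in liver replicate 1 and absent from liver replicate 2. Both tissues shared 2 regions away from starts. One lies at chr9:46214301-46216452 in Sik3, a salt-inducible kinase gene, with percentiles of 55.4 and 32.3 for liver, and 90.1 and 76.5 for yolk sac. The other lies at chr9:46257451-46258152, between Apoa4 and Apoa5, with 77.9 and 37.6 for liver, and 9.0 and 48.2 for yolk sac. The promoters of Zpr1 and Bud13, the next genes beyond Apoa5, were called in all 4 lists at percentiles from 75.4 to 98.5.

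**Figure D5:**
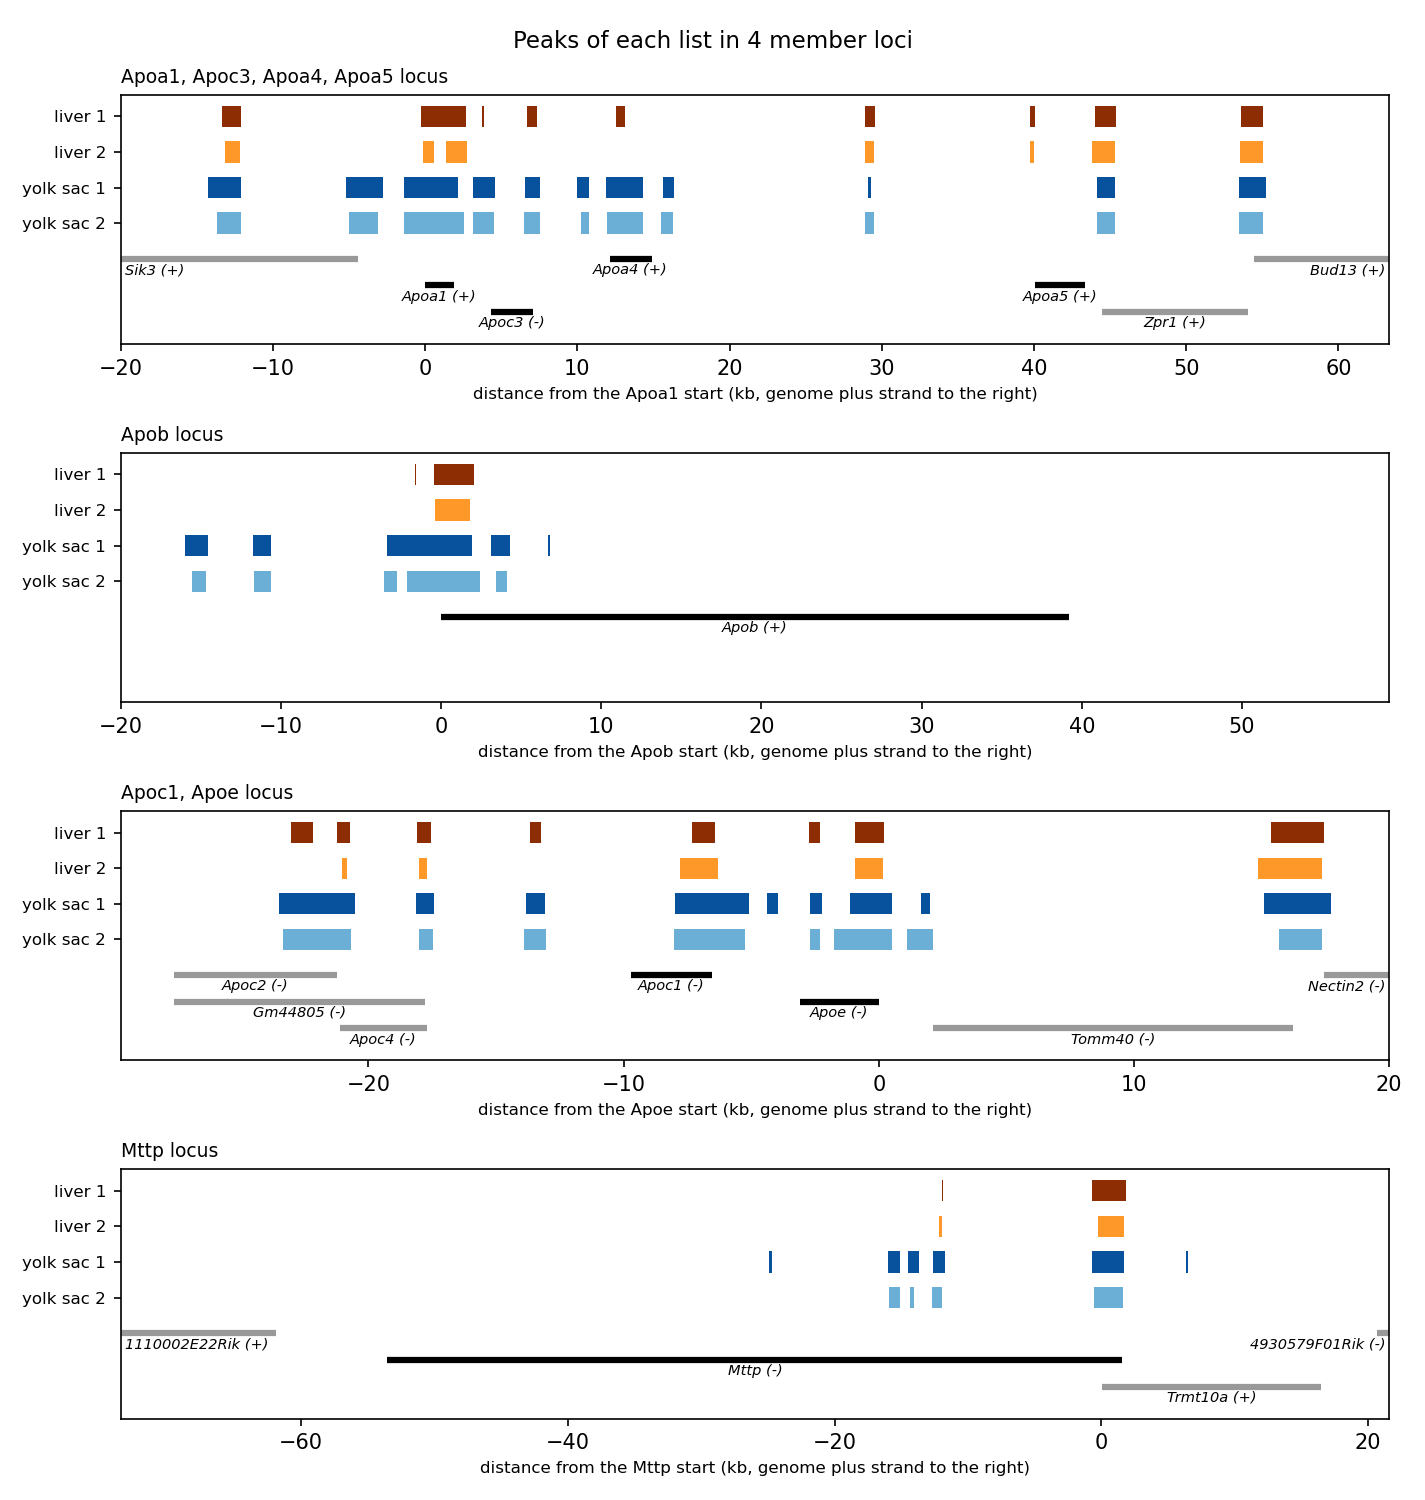
Positions of the peaks of each library (coloured bars) in 4 loci against the distance in kb from the named start. Those of the 10 genes that lie there are in black and other protein-coding genes in grey, with the strand in brackets. The Apoa2 and Apom loci are not drawn. Yolk sac rows show bars far upstream of Apob, inside Apob and Mttp and around Apoa4 that the liver rows lack. Liver replicate 1 has a small bar nearer the Apob start, and the small Apoa5 bars are in the liver rows alone.

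On chromosome 7, yolk sac alone had a region at chr7:19700301-19701302, with its midpoint at -1614 bp from the Apoe start and percentiles of 26.8 and 44.3. Liver replicate 1 and both yolk sac lists shared a region inside Apoe at chr7:19696451-19696952 (40.0 in liver, 33.4 and 20.5 in yolk sac). They also shared a region downstream of Apoc1 at chr7:19685301-19686152 (33.6 in liver, 60.9 and 57.3 in yolk sac). The Apom locus had none in yolk sac alone.

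The wider lipoprotein pathway was read from a list of 65 genes. Of these, 55 and 54 had a promoter peak in liver, and 59 and 60 in yolk sac. In all, 50 were called in all 4 lists, 3 in liver alone, 7 in yolk sac alone, 1 in none and 4 in other combinations. Among all protein-coding genes the shares were 53.8% in all 4 lists, 1.01% in liver alone, 5.25% in yolk sac alone and 34.2% in none. All 20 transcriptional regulators on the list were called in all 4 lists. Hnf4a, a nuclear receptor of liver and endoderm, had percentiles of 56.5 and 37.9 in liver and 86.5 and 72.4 in yolk sac. Foxa2, a forkhead factor of endoderm, had 39.7 and 38.9 in liver and 74.2 and 77.1 in yolk sac. Neither overlapped between tissues. Of the 20 regulators, 9 had a higher percentile in both yolk sac lists, beside 34.4% of the 11805 protein-coding genes called in all 4 lists. Another 5 were higher in both liver lists, beside 22.1%, and 6 overlapped. At equal list lengths 5 of the 18 still called were higher in yolk sac, beside 12.9% of 10255 genes, and 8 in liver, beside 52.3%.

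Among 9 other apolipoprotein genes, including RNA editing factors of Apob, 7 were called in all lists, Apof in liver alone (percentiles 96.8 and 32.9) and Apod in none. Apobec1, the enzyme that edits Apob RNA, stood high in every list, at 91.1 and 87.5 in liver and 83.1 and 97.3 in yolk sac. Of 10 assembly and secretion genes 9 were called in all lists. Tm6sf2, which affects how much lipid is secreted, had weak peaks in yolk sac alone (1.9 and 11.9). Of 11 lipase and plasma remodelling genes, 7 were called in all lists. Lcat, which esterifies cholesterol in plasma (40.9 and 52.4), was called in liver alone. Gpihbp1, which holds lipoprotein lipase on capillary walls (61.2 and 58.2), was called in yolk sac alone.

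Of 15 receptors and transporters, 8 were called in each liver list, beside 56.06% and 57.88% of all protein-coding genes, and 14 and 15 in yolk sac, beside 63.77% and 62.42%. Of them 5 were called in yolk sac alone, as were 5.25% of all protein-coding genes. Called in yolk sac alone were Cubn (59.3 and 65.0) and Amn (77.0 and 91.0), which form the cubilin receptor complex, Cd36 (56.2 and 30.1), a fatty acid transporter, and the sterol exporters Abcg5 and Abcg8, which share a peak (32.4 and 44.9). Lrp2, the megalin receptor, had 24.8 in liver replicate 1, no peak in liver replicate 2, and 84.3 and 76.2 in yolk sac. Amn, Cubn and Lrp2 are also on the yolk sac endoderm marker list. The yolk sac lists are longer, and the part of list length in these calls was not tested.

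Across the 4 libraries, the protein-coding genes whose percentiles came closest to the median of the 7 genes were Fat1, Itga4 and Smurf2. Their distances, taken as the Euclidean distance over 4 percentiles, were 5.48, 6.08 and 6.48 percentile points. Fat1, an atypical cadherin gene, had 38.1 and 39.0 in liver and 57.5 and 62.0 in yolk sac. Over so few libraries this is a description of likeness in rank only.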

How the data were processed

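PRO-seq was done on 2 liver and 2 yolk sac pools of E14.5 embryos. Per the labels, groups are the tissue in each sample's title. The authors deposited 1 peak list per library, made per library from the run-on reads, with a unitless score for each peak, per the deposited files. The submitters' processing notes name Bowtie2, bedtools and mm10, with no version or role; dREG is named in the deposited files' names, and its settings are not given in the sources used here. Gene starts came from GENCODE M21 (GRCm38, the same build). A promoter peak overlapped 500 bp either side of a start; where several did, the highest-scoring was used. Peaks were placed in a locus by midpoint, and merged at an overlap of 1 bp. Tests were exact permutations over the 6 assignments of the libraries, in Python (3.11.15) using scipy (1.17.1), pandas (2.3.3) and numpy (2.4.6). On simulated lists, 200 of 200 planted promoter patterns were returned. The alternatives were list cuts, other windows and flanks, leaving out each library and a replicate block. All 10 genes are named; of the 65 pathway genes, those called in 1 tissue alone plus a fixed set; of neighbours, those in the loci; and the 3 nearest in percentile. Some items under this rule are not reported here. The genes and lists were chosen with earlier results of these data known.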

Additional observations from a re-analysis of the deposited data

How the results depend on the processing

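Across 13 other settings, 55 of 76 values of the comparisons held, 20 moved and 1 reversed; for the promoter calls of single genes 76 of 90 held and 14 moved. When each list was cut to its 24333 best-scoring peaks, the difference in genes with a promoter peak was -1.5 and that in locus peaks -4. Liver replicate 2 lost no peak to this cut, which fell almost wholly on the yolk sac lists. Genes called in 1 tissue alone then numbered 2 (Apoa2 and Apoa5, in liver) and such regions 2. Percentiles were higher in yolk sac for 2 genes and in liver for 3. The percentile differences of Apob (-19.02) and Apom (-19.88) reversed. That of Mttp changed sign too, from 2.23 to -33.01, and that of Apoa1 went from -9.88 to -53.29. With the higher-scoring 50% of each list the differences in genes with a promoter peak and in locus peaks were 5 and 8. Genes called in 1 tissue alone numbered 3 and such regions 6, without a share over all genes for this setting. No gene was then called in all 4 lists, so widths and percentiles gave no value. A 250 bp window gave 2 genes called in 1 tissue alone and 1 on which the liver lists disagreed. Flanks of 50 kb gave a locus difference of 21 and 17 regions called in 1 tissue alone. Leaving out 1 library at a time gave differences in genes called from -1 to 1, genes called in 1 tissue alone from 1 to 3, genes with a higher percentile in yolk sac from 4 to 7 and in liver from 0 to 2, and genes wider in liver from 0 to 2. Wider yolk sac peaks were found for 5 to 7 genes in those fits. With the replicate block the locus difference stayed 13 (paired exact test, p = 0.5, the smallest it can give). No shared source is stated for libraries of the same replicate number. The deviations in promoter width of those numbered 1 had a correlation across 11805 genes of 0.0026. This value alone cannot show whether they shared a source. Depth is unknown and limits every absent call.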
